A study of Homo sapiens with 12 samples.

Results

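Transcript levels of 8 epithelial kallikreins (KLK5, KLK6, KLK7, KLK8, KLK9, KLK10, KLK11 and KLK13) and of the protease inhibitor SPINK5 were followed in FaDu cells with and without STING, before and after radiation. The members were taken by symbol from the deposited expression table, which lists 58288 genes, and all 9 were found. FaDu is an established head and neck squamous cell carcinoma (HNSCC) line. STING WT cells carried Cas9 and a non-targeting guide RNA, STING KO cells carried Cas9 and a guide RNA against STING, and all cells were selected with puromycin, so that each genotype was represented by a single guide RNA. Cells of both genotypes were either left unirradiated (0Gy) or given 4 daily fractions of 2 Gy (RT), and polyadenylated RNA gave 3 libraries per group, 12 altogether. The time from the last fraction to RNA collection is not reported here. The labels do not say that the 3 libraries of a group came from separate cultures, so the p-values measure only the spread between these samples.

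Kallikreins are secreted serine proteases, made as inactive precursors, that are encoded side by side in a single gene cluster. In stratified epithelium they form a cascade in which one protease activates the next, and KLK5 and KLK7 cleave the junction proteins that hold the outermost cells together. SPINK5 encodes LEKTI, a multidomain inhibitor that is cut into fragments that block several kallikreins, and its loss causes Netherton syndrome, a disorder of skin shedding and barrier. Kallikreins also cleave protease-activated receptors on the cell surface, and several of them are made by squamous carcinomas.

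Values are TPM, a measure of transcript abundance that is scaled for transcript length, so that they may be compared between genes. Each library sums to the same total, so the read depth behind a value is unknown and only the spread between libraries measures error. In the test this spread was estimated over the 4 groups together. TMEM173, the gene for STING, was at 21.7, 23.5 and 21.1 TPM in unirradiated WT libraries and at 5.18, 5.29 and 6.96 TPM in unirradiated KO libraries, and at 26.1, 21.4 and 21.7 TPM in irradiated WT and 6.35, 7.41 and 7.08 TPM in irradiated KO libraries. The log2 fold change of KO against WT was -1.77 without and -1.60 with radiation (limma adjusted p = 1.2e-05 and 2.0e-05). The table names its columns differently from the sample labels. Columns whose names begin with NT were read as the non-targeting line and taken as WT, and the remaining columns, by elimination, as KO. Both assignments are inferences. TMEM173 was lower in every library taken as KO than in any taken as WT. All 8 squamous or epithelial markers examined were detected, with KRT5 between 1869 and 4839 TPM and KRT17 between 2962 and 4380 TPM. With radiation DSG3 was lower (limma adjusted p = 0.0064 in WT and 0.0056 in KO cells) and EPCAM higher (0.046 and 0.023). In KO cells KRT17 was lower without and with radiation (limma adjusted p = 0.014 and 4.9e-04), and KRT14 was higher without radiation (0.022). KRT5, KRT6A, TP63 and CDH1 passed in no comparison. The part of these differences in the results below was not tested. The fibroblast markers DCN, LUM, COL1A2, COL3A1 and PDGFRB were at 0.115 TPM or less in every library. The immune markers PTPRC, CD3E and CD79A and the endothelial marker PECAM1 were at 0.343 TPM or less. The remaining markers of those cell types were detected in every library. COL1A1 was at 6.34 to 9.23 TPM, CD68 at 14.7 to 31.1, VWF at 2.60 to 4.49 and CDH5 at 8.51 to 19.8 TPM. Summed levels of the 3 endothelial markers, of which CDH5 passed the test for radiation in both genotypes, were 11.5 to 15.9 TPM without and 18.3 to 23.9 TPM with radiation, and their part in the results below was not tested.

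The 8 kallikreins lie within 121.8 kb of chromosome 19 (GRCh38, 50943303 to 51065114), all on the minus strand, and SPINK5 lies on the plus strand of chromosome 5 from 148025683 to 148137289. Identifiers of all 9 matched GENCODE release 29 with the version number, but that of KLK14, another gene of the cluster, did not. The release behind the TPM is not given, so the overlaps below are those of release 29. Neighbouring kallikreins share annotated exons with other loci, which bears on what their TPM can show. AC011473.4 (ENSG00000269741.5), annotated as a protein-coding gene on the same strand, shares 787 exonic bases with KLK9 (93.69% of the exonic length of KLK9) and 747 with KLK8 (40.05%), and its own TPM ran from 11.2 to 20.2. Reads from these 3 genes cannot be told apart over the shared bases, so KLK9 and KLK8 levels are uncertain. An antisense locus, ENSG00000269495.1, overlaps 20.29% of the exonic length of KLK6 and 12.22% of that of KLK5, and another, AC011473.2, overlaps 6.23% of that of KLK10. Both antisense loci were at 3.10 TPM or less in every library, far below the kallikreins they overlap. The strand setting of the counting is not given in the sources used here, so these values cannot show how reads over the shared bases were assigned. These overlapping loci were named for their position, after their values were seen.

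Promoter sequences were found for 8 of the 9 members in RefSeq (GRCh38.p14), covering 250 bases before and 50 after the start site. The sequences of 3 are shown, 5′ to 3′ on the strand of the gene: KLK11, which fell after radiation in WT cells, KLK6, the most abundant member, and SPINK5, the inhibitor. Capitals mark matches to 5 short motifs searched on both strands: an AP-1 site (TGANTCA), a grainyhead site (AACNGGTT), a TATA box (TATAAA), a GC box (GGGCGG) and the core of an interferon-stimulated element (GAAANNGAA).
KLK11 (chr19:51027597-51027896, minus strand): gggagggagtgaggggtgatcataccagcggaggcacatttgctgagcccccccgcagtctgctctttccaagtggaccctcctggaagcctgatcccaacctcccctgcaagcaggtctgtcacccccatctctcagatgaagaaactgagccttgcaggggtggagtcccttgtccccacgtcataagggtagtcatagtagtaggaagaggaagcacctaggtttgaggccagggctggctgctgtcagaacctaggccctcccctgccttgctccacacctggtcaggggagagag
KLK6 (chr19:50969542-50969841, minus strand): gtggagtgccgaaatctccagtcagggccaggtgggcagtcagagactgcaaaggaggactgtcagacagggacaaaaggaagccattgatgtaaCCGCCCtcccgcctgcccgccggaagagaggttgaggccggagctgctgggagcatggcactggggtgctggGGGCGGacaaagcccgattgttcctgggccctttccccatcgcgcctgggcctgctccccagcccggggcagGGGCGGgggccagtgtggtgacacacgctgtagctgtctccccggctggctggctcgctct
SPINK5 (chr5:148063730-148064029, plus strand): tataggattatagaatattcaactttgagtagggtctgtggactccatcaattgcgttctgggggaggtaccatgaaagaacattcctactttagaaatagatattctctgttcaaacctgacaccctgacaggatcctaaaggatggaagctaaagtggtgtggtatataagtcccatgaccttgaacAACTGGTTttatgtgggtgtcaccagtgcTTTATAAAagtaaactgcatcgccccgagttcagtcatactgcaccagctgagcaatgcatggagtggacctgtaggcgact
No match to the 5 motifs stood in the KLK11 window, nor in those of KLK5 and KLK10. KLK6 held 3 GC boxes, KLK7 and KLK13 held 2 each (overlapping in KLK13) and KLK9 held 1. A GC box stands in 45% of the 35116 RefSeq promoters. SPINK5 held a grainyhead site at -61 from the start site, a motif found in 1.73% of promoters, and a TATA box at -30, found in 11.5%, which overlaps its own reverse-complement match at -32. AP-1 sites and interferon-element cores, which stand in 7.71% and 8.11% of promoters, were found in 0 of the 8 windows. The RefSeq start sites differed from the outermost GENCODE start of the gene for all 8, so the windows describe 1 start site per gene. The gap was large for SPINK5, whose window begins at 148063730, inside the gene, while the GENCODE gene begins at 148025683. Its motif matches therefore do not describe the outermost start.

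All 9 members were at 1 TPM or more in all 12 libraries and passed the filter on low values, but their levels spanned more than 2 orders of magnitude. In unirradiated WT cells the order was KLK6 (300.2 TPM ± 46.9, SD, n = 3), KLK5 (251.7 ± 28.4), KLK10 (109.2 ± 36.7), KLK13 (22.7 ± 3.66), KLK8 (14.4 ± 1.17), KLK9 (7.58 ± 1.75), KLK11 (5.49 ± 1.26), SPINK5 (2.54 ± 0.52) and KLK7 (1.17 ± 0.108). The ranges of neighbours in this order did not overlap, except for KLK6 with KLK5 and KLK9 with KLK11. Within each of these libraries KLK9 was above KLK11. The leading genes were near the top of the 15973 genes tested: 97.1% of them had a lower mean than KLK6 and 96.5% a lower mean than KLK5, against 11.5% for KLK7. KLK5, KLK6 and KLK10 together made up 91.0% to 93.9% of the summed TPM of the 8 kallikreins in each library.

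**Figure D1:**
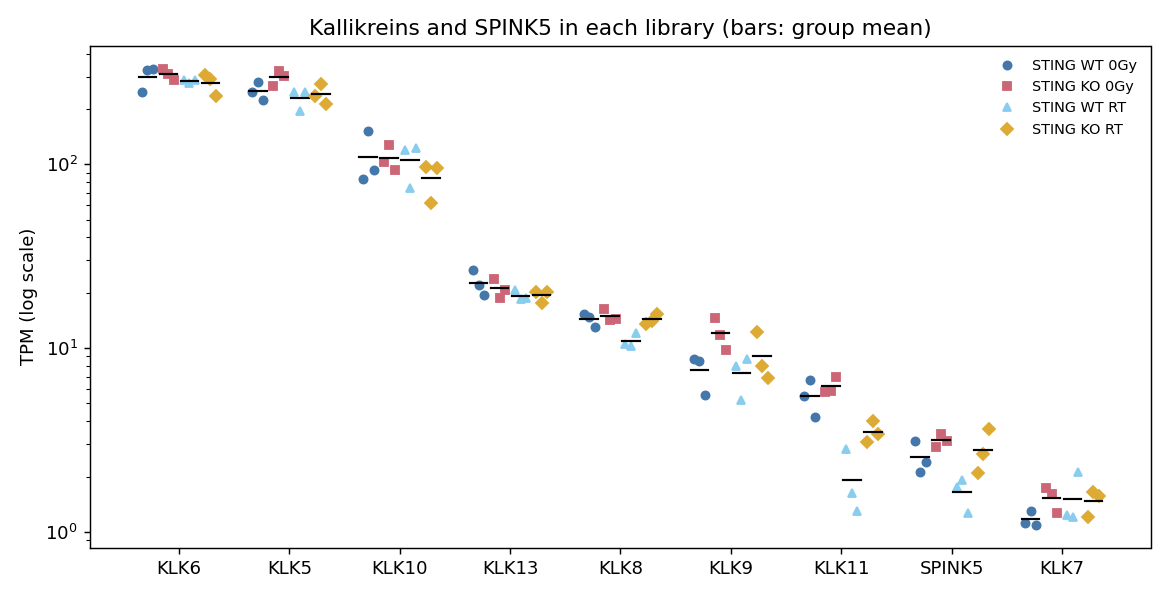
TPM (log scale) of the 9 members in each of the 12 libraries, ordered by mean level, with a symbol for each group and a bar at the group mean. KLK6 and KLK5 lie between 194 and 331 TPM, KLK7 between 1.09 and 2.11 TPM, and the irradiated WT libraries are the lowest for KLK11.

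KLK7 was too low to judge, at 1.09 to 2.11 TPM over the 12 libraries, close to the filter of 1 TPM. SPINK5, at 1.26 to 3.64 TPM, and KLK11 in irradiated WT cells, at 1.30 to 2.81 TPM, were also low, and the pseudocount of 1 used in the test makes their log2 fold changes smaller than the change in TPM. KLK9 could not be judged for the other reason, its shared exons. In the rest of the cluster only KLK1, the tissue kallikrein, passed the filter, at 0.49 to 2.96 TPM. KLK2, KLK3 and KLK12 were listed at 0 in all 12 libraries, KLK4 and KLK14 did not exceed 0.814 TPM, and KLK15 and the pseudogene KLKP1 did not exceed 0.126 TPM. KLK12 lies between KLK11 and KLK13, both of which were detected.

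**Figure D2:**
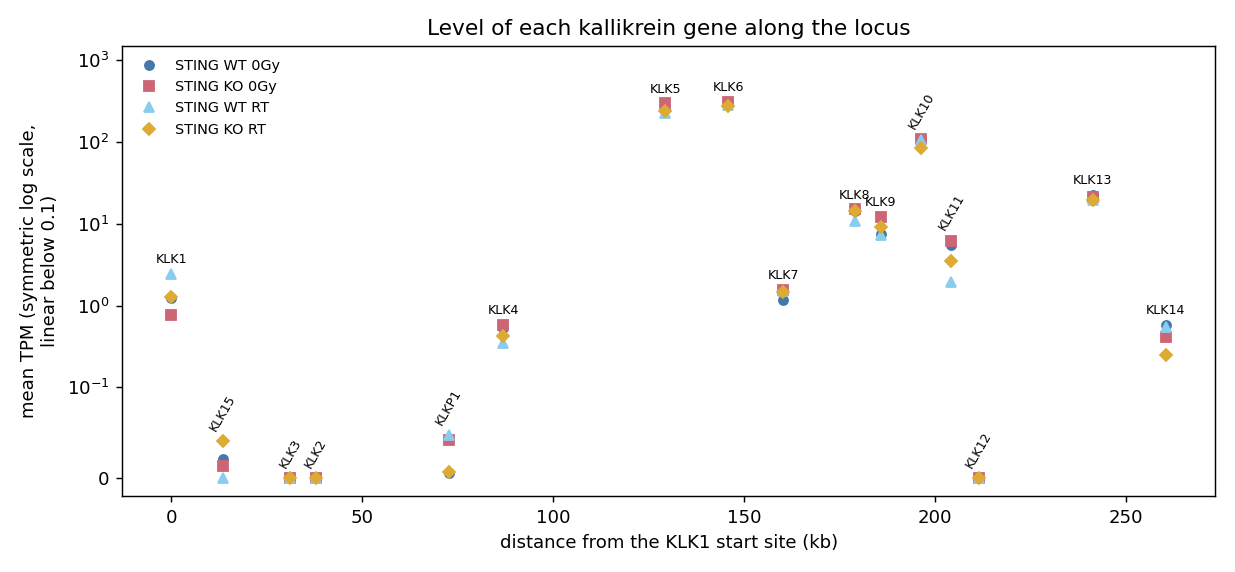
Mean TPM in each of the 4 groups (symmetric log scale, linear below 0.1) of the 16 kallikrein genes against the distance of their start sites from that of KLK1 in kb. The abundant genes KLK5, KLK6 and KLK10 stand among genes of lower level, and KLK2, KLK3 and KLK12 lie at 0.

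The first comparison asked how the members differ between STING KO and STING WT cells without radiation. No member passed the test (limma, Benjamini-Hochberg adjusted p under 0.05), where 1.73% of all tested genes did, and 1 member, KLK9, had an unadjusted p under 0.05, as did 14.3% of tested genes. KLK9, a chymotrypsin-like kallikrein, was at 8.67, 8.51 and 5.55 TPM in WT and 14.6, 11.8 and 9.76 TPM in KO libraries. It was the only member whose libraries did not overlap between the groups, which was so for 20.6% of tested genes. Its fitted log2 fold change was 0.61 (SE 0.24, limma adjusted p = 0.29), and its shared exons leave these KLK9 values uncertain. KLK5 was at 248.5, 281 and 225 TPM in WT and 268, 323 and 301 TPM in KO libraries. These overlap, with a log2 fold change of 0.24 (95% confidence interval -0.04 to 0.52). For KLK6 the interval ran from -0.22 to 0.32 and for KLK8 from -0.14 to 0.25, and differences of any size within these intervals cannot be told from 0. KLK10 was the most variable of the abundant members, at 83.1, 151 and 93.5 TPM in WT and 103, 127 and 93.0 TPM in KO libraries, and its interval ran from -0.58 to 0.62. The median log2 fold change over the 9 members, KLK7 and KLK9 included, was 0.16, against -0.02 over all tested genes.

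After radiation, KO and WT cells were compared in the same way. None of the 9 members passed the test, where 3.59% of tested genes did. An unadjusted p under 0.05 was found for 3 members and for 17.9% of tested genes. The same 3, KLK8, KLK11 and SPINK5, did not overlap between the groups, as was so for 24.1% of tested genes. KLK8, a trypsin-like kallikrein also known as neuropsin, was at 10.5, 10.3 and 12.1 TPM in irradiated WT and 13.6, 14.1 and 15.4 TPM in irradiated KO libraries. Each KO library was above each WT library, and the fitted difference was 0.36 on the log2 scale (SE 0.088, limma adjusted p = 0.052). The call was made in 5 of 20 alternative fits, 2 of which left out a library, WT 0Gy replicate 3 (adjusted p = 0.048) or WT RT replicate 3 (adjusted p = 0.048). KLK11, a trypsin-like kallikrein, was at 2.81, 1.63 and 1.30 TPM in irradiated WT and 3.08, 4.01 and 3.42 TPM in irradiated KO libraries. Its log2 fold change was 0.66 (SE 0.19, limma adjusted p = 0.10), and it passed only without WT RT replicate 1 (adjusted p = 0.035). SPINK5 was at 1.77, 1.91 and 1.26 TPM in irradiated WT and 2.09, 2.65 and 3.64 TPM in irradiated KO libraries, all KO libraries being higher. The fitted difference was 0.51 (SE 0.17, limma adjusted p = 0.14). The other 6 members overlapped between the groups, and KLK10, first described as a gene of normal epithelial cells, had the lowest estimate of them, at 120, 74.2 and 122 TPM in WT and 97.0, 61.2 and 95.3 TPM in KO libraries with a log2 fold change of -0.31 (95% confidence interval -0.91 to 0.29). The median over the 9 members, KLK7 and KLK9 included, was 0.07, against -0.02 over all tested genes.

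The radiation effect in WT cells was the only comparison in which members passed the test. KLK11 and KLK8 fell, 2 of 9 members, where 3.74% of tested genes passed in either direction and 1.5% were lower. KLK11 was at 5.51, 6.74 and 4.22 TPM without and 2.81, 1.63 and 1.30 TPM with radiation. In bulk RNA a smaller number of cells making a transcript and less transcript per cell cannot be told apart. Every irradiated library was below every unirradiated one, and mean KLK11 after radiation was 0.349 times that before. The log2 fold change was -1.17 (SE 0.19, 95% confidence interval -1.60 to -0.74, limma adjusted p = 0.0099). The call was lost when only the 6 WT libraries were fitted (adjusted p = 0.089) and held in the 18 other alternative fits.

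KLK8 was at 15.3, 14.8 and 13.1 TPM without and 10.5, 10.3 and 12.1 TPM with radiation in WT cells. Its libraries did not overlap, and the mean after radiation was 0.759 times that before (log2 fold change -0.37, SE 0.088, limma adjusted p = 0.048). This call lay at the threshold. It held in 5 of 20 alternative fits and, of the 12 libraries left out in turn, only without WT 0Gy replicate 3, so that leaving out any of the other 11 ended it (adjusted p up to 0.15). AC011473.4, which shares exons with KLK8, was at 13.97, 16.4 and 16.5 TPM without and 11.2, 12.3 and 11.4 TPM with radiation, so it was lower as well (log2 fold change -0.40, limma adjusted p = 0.096). When KLK8, KLK9 and AC011473.4 were summed to a single feature, the sum was 37.9, 39.8 and 35.2 TPM without and 29.6, 27.8 and 32.1 TPM with radiation. Its libraries did not overlap either, but the difference was not past the threshold (log2 fold change -0.33, SE 0.096, limma adjusted p = 0.099).

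SPINK5 was at 3.12, 2.11 and 2.39 TPM without and 1.77, 1.91 and 1.26 TPM with radiation in WT cells. It was the other member whose libraries did not overlap, making 3 of 9 where 24.8% of tested genes did not overlap, and it did not pass the test (log2 fold change -0.42, SE 0.17, limma adjusted p = 0.22). The libraries of the abundant members KLK6, KLK5 and KLK10 overlapped between the groups. KLK10 was at 83.1, 151 and 93.5 TPM without and 120, 74.2 and 122 TPM with radiation (95% confidence interval -0.64 to 0.56). KLK6, a trypsin-like kallikrein also made in the brain, was at 246, 324 and 330 TPM without and 289, 277 and 287 TPM with radiation, and KLK5 at 248.5, 281 and 225 TPM against 246, 194 and 248.7 TPM. The intervals of their log2 fold changes ran from -0.34 to 0.20 for KLK6 and from -0.41 to 0.14 for KLK5. KLK13, a trypsin-like member, was at 26.6, 22.0 and 19.4 TPM without and 20.6, 18.6 and 18.8 TPM with radiation (log2 fold change -0.21, limma adjusted p = 0.39). KLK7, the chymotrypsin-like partner of KLK5, was at 1.12, 1.29 and 1.09 TPM without and 1.24, 1.204 and 2.11 TPM with radiation, and replicate 3 was the only irradiated library outside the unirradiated range. KLK9 was at 8.67, 8.51 and 5.55 TPM without and 7.96, 5.24 and 8.68 TPM with radiation, which overlap. The fitted change was negative for 8 of the 9 members, as it was for 46% of all tested genes, and the members' median was -0.13 against 0.02 over all tested genes. Both include KLK7 and KLK9, which could not be judged, and the members share libraries, so they are a description.

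In KO cells no member passed the test for radiation, where 3.69% of tested genes did, and 2 (KLK5 and KLK11) had an unadjusted p under 0.05, as did 18.1% of tested genes. KLK11 was at 5.80, 5.81 and 6.96 TPM without and 3.08, 4.01 and 3.42 TPM with radiation. All irradiated libraries were lower, 0.566 times the unirradiated mean, and the fitted difference was -0.68 on the log2 scale (SE 0.19, limma adjusted p = 0.091). This difference passed only when WT RT replicate 1 was left out (adjusted p = 0.049), a library that enters through the shared estimate of the spread. KLK11 was the only member without overlap, which was found for 24.3% of tested genes. KLK5 was at 268, 323 and 301 TPM without and 235, 272 and 214 TPM with radiation (log2 fold change -0.31, SE 0.13, limma adjusted p = 0.22). KLK10 was at 103, 127 and 93.0 TPM without and 97.0, 61.2 and 95.3 TPM with radiation (log2 fold change -0.37, 95% confidence interval -0.97 to 0.23). KLK9 was at 14.6, 11.8 and 9.76 TPM without and 12.3, 7.95 and 6.91 TPM with radiation, which overlap. KLK8 was at 16.3, 14.2 and 14.5 TPM without and 13.6, 14.1 and 15.4 TPM with radiation, overlapping values with an interval of -0.25 to 0.14. SPINK5 was at 2.90, 3.42 and 3.14 TPM without and 2.09, 2.65 and 3.64 TPM with radiation, and irradiated KO replicate 3 held the highest value of the 12 libraries. The fitted change was negative for all 9 members, as for 45.7% of tested genes, with a median of -0.17 against 0.02. This includes KLK7 (-0.035, SE 0.15), whose sign changed in 2 alternative fits, and KLK9, whose level could not be judged. The members share libraries, so the count and the median are a description.

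**Figure D3:**
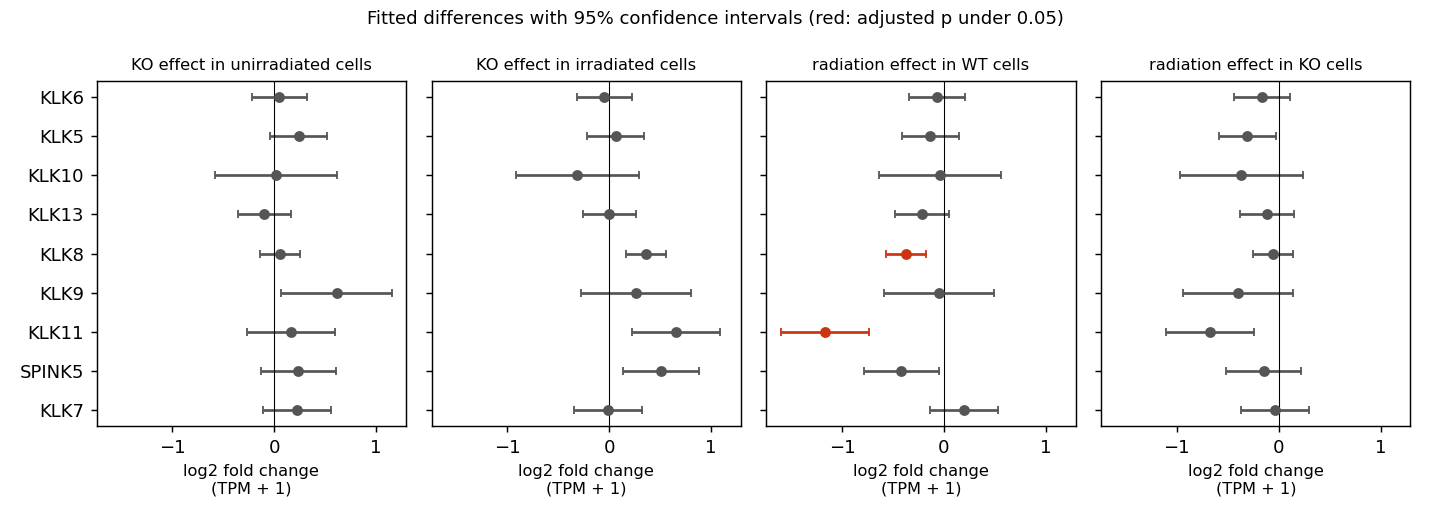
Fitted log2 fold changes of log2(TPM + 1) for the 9 members in 4 comparisons, with 95% confidence intervals over the 12 libraries and members past an adjusted p of 0.05 in red. KLK11 (-1.17) and KLK8 (-0.37) are red, both in the comparison of irradiated with unirradiated WT cells.

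That KLK11 and KLK8 passed in WT and not in KO cells does not show that the genotypes differ, and the difference of the 2 radiation effects was tested directly. None of the 9 members passed, where 0.0188% of tested genes did, and only KLK8 had an unadjusted p under 0.05, as did 6.61% of tested genes. For KLK8 the radiation effect in KO minus that in WT cells was 0.31 on the log2 scale (95% confidence interval 0.033 to 0.585, limma adjusted p = 0.74), and 0.11 (adjusted p = 0.93) for its sum with KLK9 and AC011473.4. For KLK11 it was 0.49 (95% confidence interval -0.12 to 1.11, limma adjusted p = 0.83) and for SPINK5 0.27 (-0.25 to 0.79, limma adjusted p = 0.88). The comparisons share groups of libraries: irradiated WT libraries enter the KO effect after radiation and the radiation effect in WT cells, so the low KLK8, KLK11 and SPINK5 values in those 3 libraries stand behind both. For single genes an exact permutation test of 3 against 3 libraries cannot go below p = 0.1.

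Kallikrein RNA relative to SPINK5 RNA was described as a ratio of TPM within each library. Protein and protease activity were not measured, and whether the SPINK5 product inhibits each kallikrein was not tested. The sum includes KLK9, whose level could not be judged. The 8 kallikreins summed to 583 to 811 TPM per library. Summed TPM per TPM of SPINK5 was 292.4 ± 90.1 (SD, n = 3) in unirradiated WT, 245.1 ± 16.5 in unirradiated KO, 418.6 ± 127.3 in irradiated WT and 248.0 ± 83.7 in irradiated KO libraries. The single libraries ran from 204 to 384, 234 to 264, 305 to 556 and 162 to 329 in the same order, so irradiated WT libraries overlapped those of the unirradiated WT and the irradiated KO group and lay above those of the unirradiated KO group. KLK5 per SPINK5, the pair best known from epidermis, ran from 79.7 to 133 in unirradiated WT and from 102 to 197 in irradiated WT libraries. Because SPINK5 was at 3.64 TPM or less, a small change in it moves these ratios strongly.

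**Figure D4:**
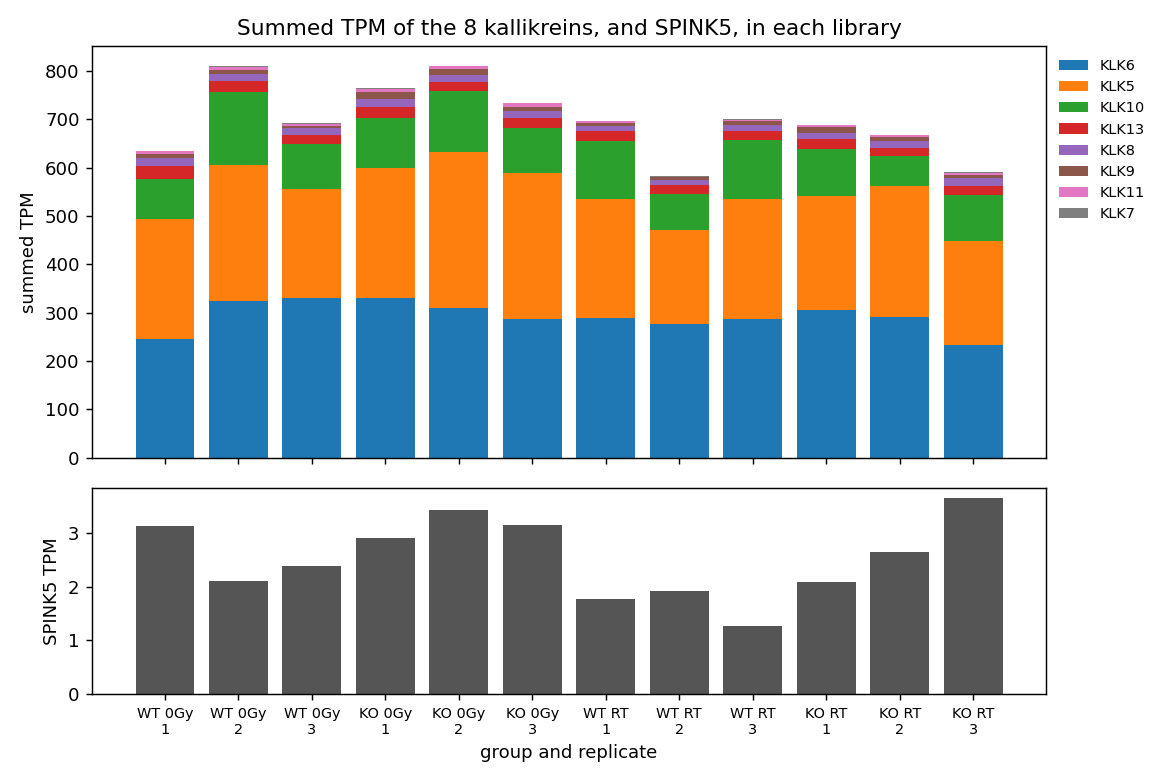
Upper bars give the summed TPM of the 8 kallikreins in each of the 12 libraries, divided by gene, and lower bars the TPM of SPINK5 in the same libraries. KLK6, KLK5 and KLK10 fill over 90% of every upper bar, and SPINK5 lies between 1.26 and 3.64 TPM.

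KLK11 and KLK9 had the largest range of group means among the members, 1.33 and 0.66 on the log2 scale, and the genes whose pattern over the 12 libraries was most like theirs were listed, with no test. For KLK11 these were TRIM29, a tripartite motif protein of squamous epithelium (Pearson r = 0.961), PIR (r = 0.953) and DPY19L1 (r = 0.953). Group means in unirradiated WT, unirradiated KO, irradiated WT and irradiated KO libraries were 128.3, 138.4, 85.2 and 99.9 TPM for TRIM29, 55.0, 60.1, 39.2 and 49.4 TPM for PIR, and 20.7, 21.5, 18.4 and 20.1 TPM for DPY19L1. As these genes were chosen for their likeness to KLK11 in the same libraries, their values are a description. For KLK9 the genes were PAXX (r = 0.921), AL035458.2 (r = 0.912) and LINC01578 (r = 0.876). The KLK9 level could not be judged because of its shared exons, so its pattern may not be its own. SPINK5 had nearly the same range, 0.6566 against 0.6635 for KLK9. The points share libraries, and the 4 groups account for part of each r.

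Of 11 other trypsin-like proteases of epithelia 7 passed the filter. PRSS22 was the only one past the threshold in any comparison, and it rose with radiation, from 67.7, 79.9 and 88.8 to 113, 112 and 120 TPM in WT cells (log2 fold change 0.55, limma adjusted p = 0.013) and from 77.3, 65.7 and 72.5 to 97.1, 109 and 100 TPM in KO cells (0.50, limma adjusted p = 0.019). The call was lost in WT cells without WT RT replicate 3 (adjusted p = 0.052) or with only the WT libraries fitted (adjusted p = 0.076), and in KO cells without replicate 2 or 3 of either KO group (adjusted p up to 0.072). ST14, the membrane protease matriptase, which can activate kallikrein precursors, ran from 122 to 142 TPM and passed in no comparison.

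Of 18 other protease inhibitors 6 passed the filter, and no other gene of the SPINK family listed did. CST6, cystatin M/E, an inhibitor of cysteine proteases in skin, rose with radiation, from 9.43, 13.4 and 12.6 to 23.0, 25.0 and 26.7 TPM in WT cells (log2 fold change 1.03, limma adjusted p = 0.0014) and from 11.8, 11.5 and 10.9 to 25.8, 27.0 and 22.2 TPM in KO cells (1.07, limma adjusted p = 0.0012). WFDC2 was lower in KO cells, at 18.2, 19.0 and 14.8 TPM in unirradiated WT against 10.8, 11.7 and 12.8 TPM in unirradiated KO libraries (log2 fold change -0.51, limma adjusted p = 0.029), with a log2 fold change of -0.63 after radiation (limma adjusted p = 0.0070). The call without radiation was lost when any of 6 libraries was left out (WT 0Gy replicates 1 and 2, KO 0Gy replicates 1 and 2, WT RT replicate 1 and KO RT replicate 2, adjusted p up to 0.17 over all alternatives), and that after radiation held throughout. SPINT2, a Kunitz-type inhibitor of membrane serine proteases, rose with radiation in KO cells (0.30, limma adjusted p = 0.049), from 345.2 to 425.7 TPM on average, a call that held in 5 of 20 alternative fits and, with a library left out, only without WT 0Gy replicate 1 or KO RT replicate 1. SPINT1, the inhibitor of matriptase, ran from 68.5 to 92.0 TPM and passed in no comparison.

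Of 9 known substrates and receptors 3 passed the filter. The cornified-layer substrates CDSN, DSG1, DSC1, FLG and FLG2, on which kallikreins act during shedding, did not exceed 0.476 TPM, and CAMP, the precursor of the antimicrobial peptide LL-37, did not exceed 0.748 TPM. F2RL1, the protease-activated receptor PAR2 that KLK5 cleaves, was higher in KO cells, at 60.1, 56.8 and 58.5 TPM in unirradiated WT against 72.5, 72.1 and 73.2 TPM in unirradiated KO libraries (log2 fold change 0.31, limma adjusted p = 0.0042), and by 0.29 after radiation (limma adjusted p = 0.0046). F2R, the receptor PAR1, was higher in KO cells by 0.31 without (limma adjusted p = 0.011) and 0.45 with radiation (limma adjusted p = 5.8e-04), and the call without radiation was lost without KO 0Gy replicate 2 or 3 (adjusted p up to 0.097 over all alternatives). IL1B rose with radiation, by 0.31 in WT (limma adjusted p = 0.019) and 0.41 in KO cells (limma adjusted p = 0.0048), and was lower in KO cells without radiation (-0.30, limma adjusted p = 0.027). The KO effect of IL1B was lost when any of the 6 unirradiated libraries was left out, and its radiation effect in WT cells without WT 0Gy replicate 1 or 3 or WT RT replicate 1 or 2 (adjusted p up to 0.12 and 0.10 over all alternatives). In the rest of the cluster KLK1 did not pass in any comparison. It was at 0.80, 1.68 and 1.19 TPM in unirradiated and 2.96, 2.55 and 1.86 TPM in irradiated WT libraries (log2 fold change 0.64, limma adjusted p = 0.16).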

How the data were processed

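RNA-Seq was carried out on FaDu cells in 4 groups of 3 libraries. The authors deposited a table of TPM for 58288 genes, in which each library sums to the same total and no further scaling between libraries is stated. The submitters' processing notes name HISAT2, StringTie, DESeq2 and hg38. Versions, annotation and strand setting are not given in the sources used here. Read depth cannot be read from TPM, and the precision of a value is known only from the spread between libraries.

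A gene was tested if 3 or more libraries reached 1 TPM, which left 15973 genes, and their log2(TPM + 1) entered a linear model of 4 group means in limma 3.58.1 (R 4.3.3, eBayes with trend, 8 residual degrees of freedom). P-values of 5 contrasts were adjusted over all tested genes (Benjamini-Hochberg, called under 0.05). The limma steps were run on simulated normal values, with changes added only in irradiated WT libraries. Such values meet the assumptions of the model, so the run does not show how the test behaves on low TPM. A count model was not used because the values are not counts. Tests are two-sided.

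The members and lists were chosen with earlier results of these data known. Genes named are TMEM173, the members, listed genes past the threshold in any contrast, ST14, F2RL1 and SPINT1, and for the 2 members with the largest range of group means the 3 genes with the highest Pearson r over 12 libraries. Overlapping loci and markers are named outside that rule. Alternatives were another pseudocount (0.1), no filter or a filter on mean TPM (5), scaling by median-of-ratios or by quantiles, no trend, a block for the replicate number, fits to the compared groups alone, leaving out each library and, chosen after seeing the data, the sum of KLK8, KLK9 and AC011473.4. Positions are from GENCODE 29 (GRCh38).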

Additional observations from a re-analysis of the deposited data

How the results depend on the processing

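Of 876 results for a member in the alternative fits, the summed feature aside, 824 kept their direction and their side of the threshold, 7 gained a call, 16 lost one and 29 changed sign. The number of members called for the KO effect in irradiated cells was 0 in the reported fit and 1, KLK8, with a mean TPM of at least 5, with median-of-ratios factors and with quantile normalization, and 0 to 1 with each library left out. For the radiation effect in WT cells it was 2, and 1 with no filter, with a mean TPM of at least 5 (where KLK11 was not tested), with eBayes without trend and with the replicate number as a block. It was 0 with only the libraries compared, where fewer samples give the spread, and 1 to 2 with each library left out. For the radiation effect in KO cells it was 0, and 0 to 1 with each library left out. For the other 2 comparisons it was 0 in every alternative. Apart from the fit in which KLK11 was not tested, the cause of these changes was not tested.

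With the replicate number as a block KLK11 in WT cells kept its call (limma adjusted p = 0.028) and KLK8 lost it (limma adjusted p = 0.096), and no other call of a member changed. Among the listed genes the block ended the calls of WFDC2 (limma adjusted p = 0.088) and IL1B (limma adjusted p = 0.076) in unirradiated KO cells, of IL1B for radiation in WT cells (limma adjusted p = 0.052) and of SPINT2 for radiation in KO cells. No pairing by replicate number was seen over all tested genes. Deviations of same-numbered libraries correlated between -0.060 and 0.064 in 18 pairs, 0 of them over 0.1, and 5 correlated best with their own number. With few libraries per group these correlations cannot exclude a pairing.

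Members changed sign where the fitted change was near 0 and not called in either fit. For KLK7 the KO effect in irradiated cells was -0.0108 as reported, 0.000708 with median-of-ratios factors and 0.0108 with quantile normalization. With each library left out, the KO effect without radiation ran from -0.0835 to 0.128 for KLK6, from -0.00904 to 0.0963 for KLK8, from -0.152 to 0.277 for KLK10 and from -0.197 to 0.0214 for KLK13. After radiation it ran from -0.0491 to 0.147 for KLK5, from -0.124 to 0.0700 for KLK6, from -0.0974 to 0.151 for KLK7 and from -0.0287 to 0.0652 for KLK13. The radiation effect in WT cells ran from -0.203 to 0.00832 for KLK6, from -0.234 to 0.142 for KLK9 and from -0.208 to 0.220 for KLK10, and in KO cells from -0.113 to 0.0460 for KLK7. The difference of the radiation effects ran from -0.177 to 0.0370 for KLK6 and from -0.0180 to 0.201 for KLK13.

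Counts over all genes fell with only the libraries compared, from 276 to 103 for the KO effect without and from 573 to 252 with radiation, and from 597 to 166 in WT and from 590 to 195 in KO cells for radiation. With the block the last 3 were 378, 315 and 359. The difference of the radiation effects had 3 genes, 7 with no filter and 1 without trend or with the block. Leaving out each library gave 172 to 292, 313 to 542, 242 to 526, 268 to 553 and 1 to 9 genes in the same order. With only the libraries compared, the calls of F2RL1 (limma adjusted p = 0.057 without and 0.061 with radiation), PRSS22 in WT cells (0.076), F2R (0.097), WFDC2 (0.17) and IL1B (0.095) in unirradiated cells, IL1B in WT cells (0.10) and SPINT2 were also lost. IL1B in unirradiated cells lost its call without trend, and WFDC2 in unirradiated cells with no filter. Median shifts between scalings were under 0.03 on the log2 scale.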
